A study of Callithrix jacchus with 6 samples.

Results

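DEPTOR, EEF2K, MTOR, RPTOR, RICTOR, TSC1 and TSC2 are 7 genes of the mTOR pathway and of the brake on translation elongation that it controls, and they are 7 of the 29320 genes counted in these libraries. They were chosen by symbol, after earlier results on the same libraries had shown differences of DEPTOR in microglia and of EEF2K in oligodendrocyte precursor cells (OPCs). For that reason every value from microglia-like and OPC-like cells is given here as a description, with no test. All 7 symbols were found in the deposited gene table, each on 1 row, and none was among the variable genes used to cluster the cells. Their identifiers there are DEPTOR ENSCJAG00000005497, EEF2K ENSCJAG00000009038, MTOR ENSCJAG00000002191, RPTOR ENSCJAG00000003276, RICTOR ENSCJAG00000007501, TSC1 ENSCJAG00000018087 and TSC2 ENSCJAG00000015115.

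mTOR is a protein kinase that works in a pair of complexes. RPTOR is the scaffold of mTORC1, which promotes protein synthesis and restrains autophagy, and RICTOR is the scaffold of mTORC2, which phosphorylates AKT and SGK1. DEPTOR binds mTOR and inhibits it, while TSC1 and TSC2 form the complex that switches off RHEB, the small GTPase that activates mTORC1. EEF2K phosphorylates and thereby inactivates elongation factor eEF2; calcium and calmodulin activate it, and mTORC1 signalling through S6 kinase inhibits it. RNA levels do not show the activity of any of these proteins.

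Hippocampi of aged common marmosets (Callithrix jacchus) were sampled after 6 h of oxygen alone (control, 3 libraries) or 6 h of sevoflurane, an inhaled anaesthetic (3 libraries). Cells were released with collagenase, frozen, thawed and made into droplet-based single-cell libraries that read the end of each transcript. Whether each replicate is its own animal is not stated in the labels, and p-values therefore measure only the spread between these samples, which may be technical. The title names FKBP5, a co-chaperone of the glucocorticoid receptor, which had 419.7, 429.8 and 367 CPM in the control libraries and 1772, 1773 and 2291 CPM in the sevoflurane libraries of microglia-like cells.

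The libraries held 7103 to 8577 barcodes and 41164947 to 47886816 unique molecular identifiers (UMIs), and 44348 of 46582 barcodes were kept after doublet removal. In each pair of libraries 13 to 27 barcode sequences were shared. Counts were summed per library and cell class and are given as CPM, the gene's UMIs scaled to the total of that class and library (the usual scale of RNA counts). A difference is a log2 fold change of sevoflurane over control from edgeR's quasi-likelihood test, with its standard error, from 3 against 3 libraries. A gene was called at a Benjamini-Hochberg adjusted p under 0.05 over all genes tested in the class, and a library group is said not to overlap the other where every value of one lies above every value of the other.

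Sevoflurane replicate 3 stood apart. It held 0 cells of glutamatergic cluster 9, where the other libraries held 291 to 3048, and 1126 and 1141 cells of clusters 22 and 23, where the others held 0 to 204. It also held 800 of the 888 cells of oligodendrocyte cluster 25. Values without sevoflurane replicate 3 are given beside some of the results, not beside all of them. Over all cells kept, EEF2K stood at 171 CPM in this library, against 75.6 to 93.9 CPM in the others. With any 1 library left out, EEF2K ran from log2 0.79 to 1.07 in oligodendrocyte-like and from 0.44 to 0.71 in astrocyte-like cells. DEPTOR in oligodendrocyte-like cells then ran from log2 -0.59 to -0.26. Sevoflurane replicate 1 also differed, with 503 of the 521 choroid plexus-like cells, where the other libraries held 0 to 16. In its microglia-like cells the choroid plexus marker list (6 of 7 genes) summed to 199 CPM, against 2.99 to 16.7 CPM in the other libraries. The part of this in the differences was not tested. Of the glutamatergic clusters, number 12 (87 to 402 cells per library, led by HS3ST4, DPP10 and KIAA1217) was the one with at least 20 cells in every library, and it was compared alone because cluster 11, placed with the glutamatergic clusters by its marker score, had the T cell marker THEMIS and no glutamatergic marker among its leading genes. Cluster 12 had no marker of either list among its leading genes. Cluster 11 scored 0.32 on the glutamatergic and 0.17 on the T cell list, with 7 glutamatergic markers detected. It is given by its number only, because more markers of another list than of its own were among its leading genes.

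In microglia-like cells, the resident immune cells of the brain, DEPTOR stood at 60.9, 38.3 and 39.4 CPM in the control libraries and 126, 158 and 152 CPM in the sevoflurane libraries. All sevoflurane libraries lay above all control libraries. The difference was log2 1.68 ± 0.24, from 23 to 101 DEPTOR UMIs per library, and log2 1.64 without sevoflurane replicate 3. With doublets kept it was log2 1.17. For shares of cells, each cell was thinned to the same depth (1000 UMIs), and cells with fewer UMIs were left out. The share of the remaining microglia-like cells with a DEPTOR UMI was 6.72, 3.55 and 5.41% in the control libraries and 11.0, 17.3 and 11.8% in the sevoflurane libraries (unthinned ranges, over all cells, 6.03 to 9.77% and 16.6 to 24.0%). The class of lowest share, astrocyte-like cells, had 0.727, 0.608 and 0.689% in the control libraries and 2.31, 0.380 and 1.54% in the sevoflurane libraries, with median depths of 2305 to 3041 UMIs per cell against 1465 to 2077 in microglia-like cells.

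The microglia-like class was 1835 cells of 1 cluster, named on 9 detected markers, with INPP5D and TBXAS1 among its leading genes. Markers of other cell types were measured in the same sums. The neuron list (7 of 7 genes in the table, none at 0 throughout) summed to 1853 to 2485 CPM in control and 1485 to 2208 CPM in sevoflurane libraries. The oligodendrocyte list (11 of 12 genes, none at 0) summed to 554 to 713 and 579 to 877 CPM. The T cell list (7 of 8 genes) summed to 56.1 to 71.8 CPM in control and 119 to 209 CPM in sevoflurane libraries without overlap, with CD3D, CD3E and CD3G at 0 in all 6 libraries. The OPC list (11 of 11 genes) was lower, 280 to 323 against 200 to 256 CPM, as were the macrophage list (7 of 7 genes), 432 to 540 against 322 to 404 CPM, the ependymal list (8 of 9 genes), 219.9 to 254 against 137 to 178 CPM, and the GABAergic list (12 of 12 genes), 228 to 272 against 186 to 222 CPM. The part of these lists in the DEPTOR difference was not tested.

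**Figure D1:**
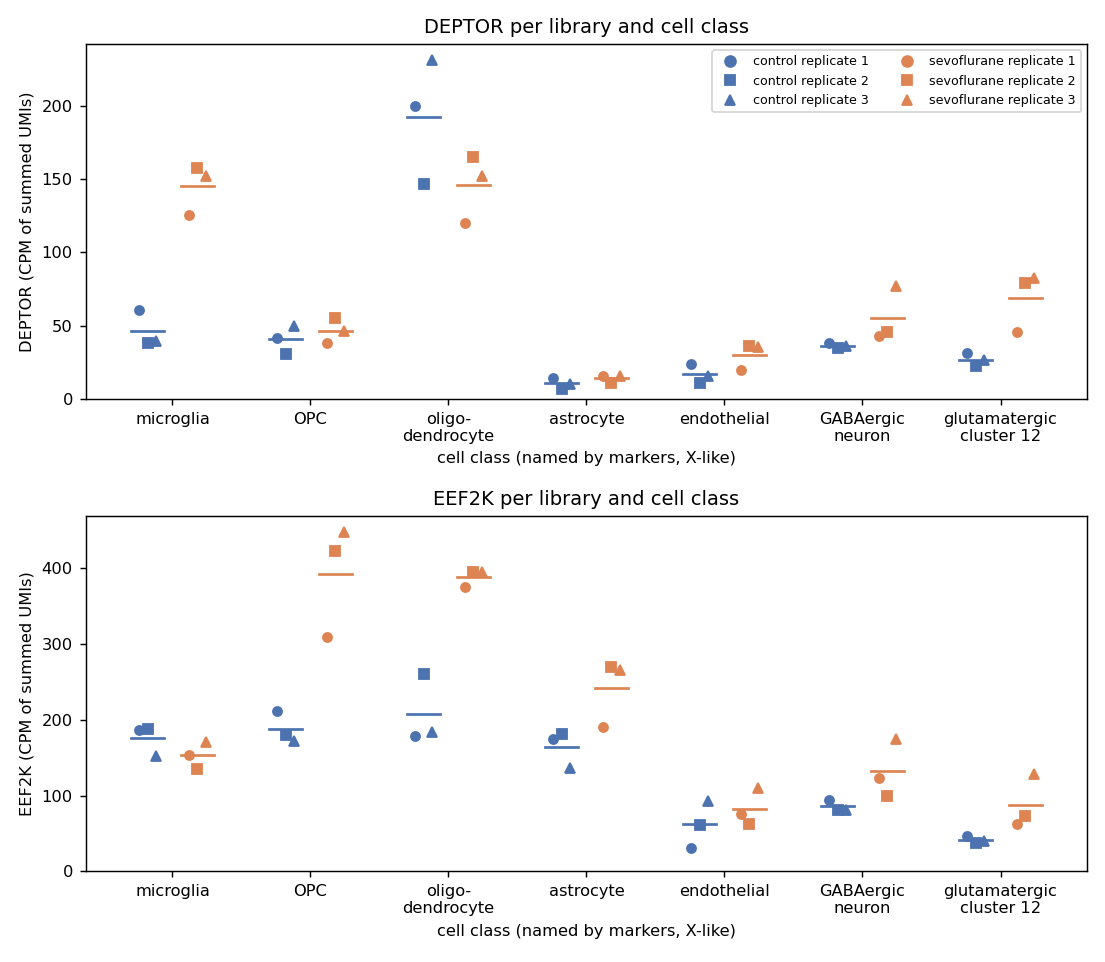
DEPTOR (upper panel) and EEF2K (lower panel) in CPM, on linear axes from 0, for each library in 7 cell groups; symbols mark replicates, colours the groups, and horizontal lines the group means. In microglia the DEPTOR points of the groups separate while those of EEF2K overlap, and in OPCs the reverse holds.

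Outside microglia-like cells, DEPTOR rose in glutamatergic cluster 12, where it stood at 31.6, 22.7 and 26.5 CPM in the control libraries and 46.0, 78.9 and 82.5 CPM in the sevoflurane libraries. The groups did not overlap, and sevoflurane replicate 1 was the lowest of its group. The difference was log2 1.28 ± 0.24 (edgeR, adjusted p = 0.0436), and log2 1.13 without sevoflurane replicate 3. The call was lost with any 1 of the 6 libraries left out (adjusted p 0.0531 to 0.158), while the log2 difference stayed between 1.13 and 1.46. In the same sums the astrocyte marker list (11 of 12 genes, none at 0) was lower after sevoflurane, 360 to 423 CPM against 553 to 668 CPM, as were the neuron list (7 of 7 genes), 8588 to 9094 against 9350 to 9856 CPM, and the endothelial list (10 of 11 genes), 23.6 to 33.1 against 36.2 to 43.3 CPM; their part in the result was not tested.

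GABAergic neuron-like cells, the inhibitory neurons, held 38.2, 34.8 and 36.1 CPM in the control libraries and 42.8, 45.9 and 76.8 CPM in the sevoflurane libraries of DEPTOR. The groups did not overlap, with sevoflurane replicate 3 well above the rest; the difference was log2 0.55 ± 0.22 (edgeR, adjusted p = 0.377) and log2 0.22 without that library. In the GABAergic sums, marker lists without overlap between control and sevoflurane libraries were the T cell list (7 of 8 genes, with CD3D and CD3G at 0 throughout) at 4.76 to 6.88 and 9.87 to 17.4 CPM, the fibroblast list (9 of 9 genes) at 132 to 144 and 147 to 213 CPM and the endothelial list (10 of 11 genes) at 26.8 to 31.4 and 20.3 to 25.2 CPM. Of single genes without overlap, the T cell list had 1 higher and 0 lower, the fibroblast list 0 higher and 1 lower, and the endothelial list 0 higher and 2 lower. The part of these lists was not tested. Oligodendrocyte-like cells, which make myelin, held 199, 146 and 231 CPM in the control libraries and 119.7, 165 and 152 CPM in the sevoflurane libraries. There the groups overlapped and the difference had the other sign, log2 -0.42 ± 0.20 (edgeR, adjusted p = 0.682). Astrocyte-like cells held 14.4, 7.09 and 10.4 CPM in the control libraries and 16.0, 11.1 and 15.8 CPM in the sevoflurane libraries, overlapping, with log2 0.46 ± 0.32 (edgeR, adjusted p = 0.895). In OPC-like cells the values were 41.8, 30.6 and 49.6 CPM in the control libraries and 38.3, 54.9 and 46.5 CPM in the sevoflurane libraries, again overlapping, at log2 0.16 ± 0.24. Endothelial-like cells, which line the vessels, had 4 to 18 DEPTOR UMIs per library, too few to pass the filter on low counts, and 23.9, 11.2 and 15.4 CPM in the control libraries and 19.8, 36.0 and 35.2 CPM in the sevoflurane libraries.

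Across cell classes of the control libraries, DEPTOR was highest in oligodendrocyte-like cells at 192 ± 42.7 CPM (SD, n = 3), 18.1 times the level of astrocyte-like cells, the lowest at 10.6 ± 3.65 CPM. The oligodendrocyte-like values did not overlap those of the next class, fibroblast-like cells at 56.1 ± 41.6 CPM. The following neighbours in the order all overlapped: microglia-like cells at 46.2 ± 12.7 CPM, OPC-like at 40.7 ± 9.55 CPM, GABAergic at 36.4 ± 1.72 CPM, glutamatergic at 28.9 ± 6.54 CPM, endothelial-like at 16.9 ± 6.48 CPM and ependymal-like at 13.5 ± 3.26 CPM. In this order glutamatergic cells are all their clusters together, so clusters 11 and 12 are counted within them.

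EEF2K in OPC-like cells, the precursors of oligodendrocytes, stood at 211, 179.6 and 172 CPM in the control libraries and 309, 422 and 448 CPM in the sevoflurane libraries. Every sevoflurane library lay above every control library. The difference was log2 1.04 ± 0.15, from 176 to 361 EEF2K UMIs per library, and log2 0.92 without sevoflurane replicate 3. The share of cells with an EEF2K UMI, at a depth of 1000 UMIs per cell and without shallower cells, was 21.8, 16.6 and 12.6% in the control libraries and 27.1, 35.5 and 34.5% in the sevoflurane libraries (unthinned ranges, over all cells, 34.5 to 42.3% and 50.0 to 71.1%). The OPC marker list (11 of 11 genes, none at 0) summed to 13683 to 15004 CPM in control and 12948 to 14613 CPM in sevoflurane libraries, and the oligodendrocyte list (11 of 12 genes, none at 0) to 494 to 579 and 416 to 664 CPM. The GABAergic list (12 of 12 genes, SLC32A1 at 0) was lower after sevoflurane, 943 to 1017 against 793 to 906 CPM, and the sum of the choroid plexus list (6 of 7 genes) higher, 10.2 to 12.9 against 16.4 to 96.8 CPM. That choroid plexus sum was 96.8, 16.4 and 27.6 CPM in sevoflurane replicates 1, 2 and 3. Of single genes without overlap, the choroid plexus list had 0 higher and 1 lower, and the GABAergic list 0 higher and 2 lower. The macrophage list (7 of 7 genes, 5 at 0) was lower, 9.96 to 15.3 against 4.68 to 7.27 CPM; their part in the EEF2K difference was not tested.

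Oligodendrocyte-like cells showed a like separation of EEF2K, with 179, 260.1 and 184 CPM in the control libraries and 375, 395 and 395 CPM in the sevoflurane libraries. The 3 sevoflurane libraries lay close together and above the control libraries, of which replicate 2 was the highest. The difference was log2 0.88 ± 0.16 and did not pass the adjusted threshold (edgeR, adjusted p = 0.298); it did with DESeq2 (adjusted p = 0.00636) and with no filter on low counts (edgeR, adjusted p = 0.0163). Within cluster 5 alone the difference was log2 0.88 ± 0.17, and within cluster 6 alone 0.92 ± 0.16, neither past the edgeR threshold, so it was as large without cluster 25. The thinned share of cells with an EEF2K UMI, again without shallower cells, was 15.1, 23.8 and 16.3% in the control libraries and 30.3, 32.2 and 32.7% in the sevoflurane libraries. Marker lists that did not overlap between control and sevoflurane libraries in these sums were the mural list (7 of 8 genes) at 183 to 211 and 239 to 293 CPM, the glutamatergic list (12 of 12 genes) at 347 to 465 and 469 to 526 CPM and the T cell list (7 of 8 genes; at 0 throughout: CD3D, CD3G) at 4.89 to 10.8 and 11.7 to 18.8 CPM. Lower were the sums of the GABAergic list (12 of 12 genes) at 230.1 to 259 and 165 to 210.3 CPM and of the endothelial list (10 of 11 genes) at 90.2 to 100.2 and 74.4 to 86.6 CPM. Of single genes, 1 of the mural and 1 of the GABAergic list lay higher without overlap, and 0 of any of these lists lay lower. Their part in the EEF2K difference was not tested.

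The other cells in which EEF2K did not overlap between groups were neurons and astrocytes. Glutamatergic cluster 12 held 46.3, 37.8 and 39.7 CPM in the control libraries and 62.1, 72.8 and 129 CPM in the sevoflurane libraries, highest in sevoflurane replicate 3, at log2 1.04 ± 0.26 (edgeR, adjusted p = 0.105; DESeq2, adjusted p = 0.0405) and log2 0.61 without that library. GABAergic neuron-like cells held 94.6, 81.4 and 80.9 CPM in the control libraries and 123, 98.7 and 174 CPM in the sevoflurane libraries, at log2 0.57 ± 0.20 (edgeR, adjusted p = 0.307) and log2 0.32 without sevoflurane replicate 3. Astrocyte-like cells held 175, 181 and 136 CPM in the control libraries and 189.9, 270.0 and 265 CPM in the sevoflurane libraries, where sevoflurane replicate 1 was only just above the highest control library, at log2 0.56 ± 0.18 (edgeR, adjusted p = 0.623). Beside it in control and sevoflurane libraries, without overlap, stood the T cell list (7 of 8 genes; at 0 throughout: CD3D, CD3G) at 4.26 to 6.03 and 6.997 to 16.3 CPM, the glutamatergic list (12 of 12 genes) at 908 to 980.5 and 1044 to 1109 CPM and the GABAergic list (12 of 12 genes; at 0 throughout: SLC32A1) at 162 to 186 and 131 to 154 CPM; their part was not tested.

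EEF2K overlapped between groups in the remaining classes. Microglia-like cells held 187, 188 and 152 CPM in the control libraries and 154, 135 and 170.2 CPM in the sevoflurane libraries, with a difference of log2 -0.18 ± 0.18. Among endothelial-like sums sevoflurane replicate 2 stood apart: its highest correlation with another library was 0.749, against 0.911 to 0.924 for the others, and its astrocyte marker list (11 of 12 genes) summed to 2070.0 CPM against 227 to 576 CPM. The sum of the oligodendrocyte list (11 of 12 genes) was higher after sevoflurane there, 525.5 to 764 against 420.5 to 508 CPM. Of its single genes, 1 lay higher without overlap and 2 lower. Endothelial-like cells held 31.1, 61.7 and 92.7 CPM in the control libraries and 76.1, 61.8 and 109 CPM in the sevoflurane libraries, at log2 0.50 ± 0.40 (edgeR, adjusted p = 1.00) and log2 0.59 without sevoflurane replicate 2. EEF2K was higher without overlap in 4 of the 5 contrasts that did not choose it (GABAergic, cluster 12, oligodendrocyte-like and astrocyte-like), where 12.8, 14.4, 8.04 and 6.09% of all genes were. DEPTOR was so in 2 of the 4 in which it was tested, GABAergic cells and cluster 12. All these contrasts come from the same 6 libraries and are not independent.

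In the order of control levels, EEF2K was highest in oligodendrocyte-like cells at 208 ± 45.5 CPM (SD, n = 3), followed by OPC-like cells at 187 ± 20.8 CPM, microglia-like cells at 176 ± 20.8 CPM and astrocyte-like cells at 164 ± 24.4 CPM. Ependymal-like cells at 123 ± 38.4 CPM and fibroblast-like cells at 116 ± 38.5 CPM came next. GABAergic cells at 85.7 ± 7.77 CPM, endothelial-like cells at 61.8 ± 30.8 CPM and glutamatergic cells at 48.5 ± 3.91 CPM were lowest. Every neighbouring pair in this order overlapped, but the control values of astrocyte-like cells lay wholly above those of GABAergic and of glutamatergic cells.

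**Figure D2:**
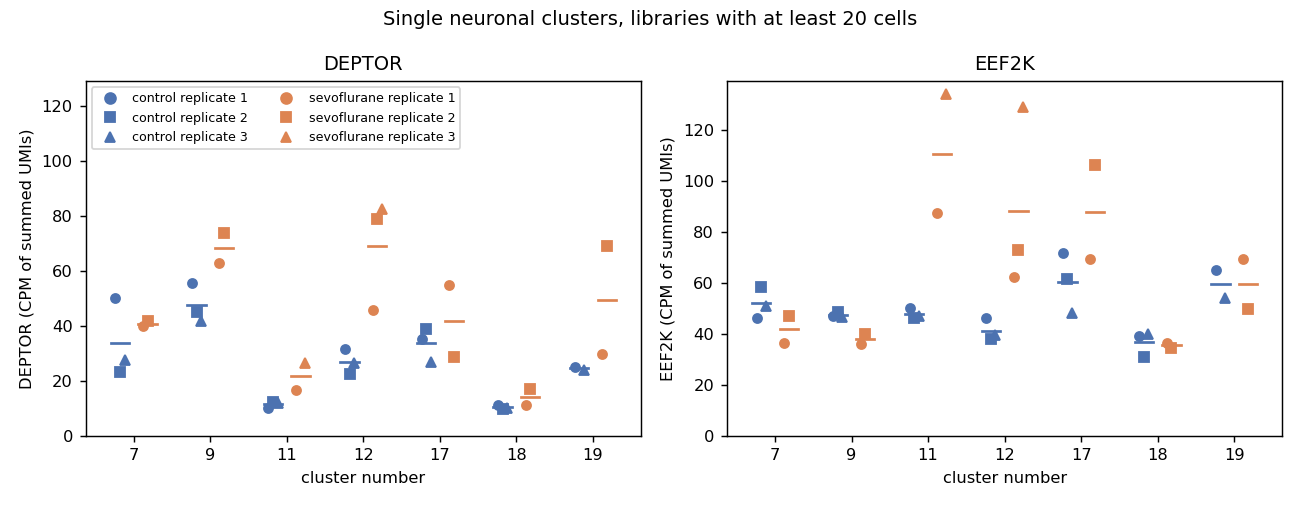
DEPTOR (left) and EEF2K (right) in CPM per library, on linear axes from 0, in single neuronal clusters; libraries with under 20 cells are left out, symbols mark replicates and lines the means. Cluster 11 is given by number only, cluster 12 is the one with all 6 libraries, and EEF2K lies below control in cluster 9 and above it in clusters 11 and 12.

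Single clusters of this kind did not share 1 direction for EEF2K. These are descriptions of 2 or 3 control and 2 sevoflurane libraries, with no test. In cluster 11 those were sevoflurane replicate 1, with 23 cells, and replicate 3, with 397 cells. In clusters 7, 9, 17, 18 and 19 they were sevoflurane replicates 1 and 2. Differences between cluster 11 and the others therefore cannot be told apart from differences between libraries. Cluster 9, the most numerous with 6975 cells, had 46.5 to 48.5 CPM in control and 35.9 to 40.1 CPM in sevoflurane libraries (log2 of the means -0.32), while cluster 11 had 46.3 to 50.0 CPM in control and 87.3 to 134 CPM in sevoflurane libraries (log2 of the means 1.21). Clusters 7, 17, 18 and 19 overlapped between groups. DEPTOR lay higher without overlap in clusters 9, 11 and 19: cluster 9 had 42.0 to 55.7 CPM in control and 63.0 to 74.1 CPM in sevoflurane libraries (log2 of the means 0.53), and the other two stood at log2 0.91 and 1.01. It overlapped in clusters 7, 17 and 18.

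Many of all genes also separated in these clusters. Of all genes past the filter on low counts, those higher without overlap made up 20.4% in glutamatergic cluster 7, 23.6% in glutamatergic cluster 9, 17.7% in cluster 11, 24.9% in glutamatergic cluster 17, 18.3% in glutamatergic cluster 18 and 30.1% in glutamatergic cluster 19. Those lower without overlap made up 10.7%, 9.85%, 11.7%, 16.9%, 11.5% and 15.2% in the same order. DEPTOR did not pass that filter in cluster 11. Of the 5730 genes tested in all 7 cell groups, 7.5% lay higher without overlap in 1 group and lower in another; with these 6 clusters added it was 33.9% of 5194 genes.

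None of the other 5 genes was called in a contrast that did not choose them. MTOR, RPTOR, RICTOR, TSC1 and TSC2 gave 25 differences in the 5 cell groups that did not choose them, from log2 -0.90 to 0.39 with a median of 0.03. The smallest adjusted p by edgeR was 0.522, 0 of the 25 had an unadjusted p under 0.05, and DESeq2 called 0. Standard errors ran from 0.09 to 0.44, and differences well above these could also go uncalled. TSC2 in endothelial-like cells, at log2 -0.90 ± 0.44, had an unadjusted p of 0.0736 (edgeR).

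MTOR, the kinase itself, ranged from log2 -0.33 to 0.24 over the 7 cell groups. In microglia-like cells it stood at 113, 132 and 119.8 CPM in the control libraries and 104, 99.9 and 86.6 CPM in the sevoflurane libraries, lower in every sevoflurane library, at log2 -0.29 ± 0.19. That difference was log2 -0.33 to -0.22 with 1 library left out. Of 13 alternatives 12 kept its sign, and the highest gave log2 0.062. RPTOR, the mTORC1 scaffold, ranged from log2 -0.06 to 0.11, the narrowest range of the 7 genes. In endothelial-like cells it held 136, 154 and 139 CPM in the control libraries and 132, 124 and 135 CPM in the sevoflurane libraries, with no overlap but a difference of log2 -0.06 ± 0.23 (edgeR, adjusted p = 1.00; log2 -0.088 without sevoflurane replicate 2). RICTOR, the mTORC2 scaffold, ranged from log2 -0.06 to 0.23 and overlapped between groups in all 7.

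TSC1, which stabilises TSC2, ranged from log2 -0.27 to 0.39, highest in glutamatergic cluster 12 with 60.8, 36.8 and 38.8 CPM in the control libraries and 50.9, 66.6 and 72.9 CPM in the sevoflurane libraries, where the groups overlapped. TSC2, the subunit that acts on RHEB, held 139, 61.7 and 49.8 CPM in the control libraries and 39.7, 36.0 and 48.8 CPM in the sevoflurane libraries of endothelial-like cells. Control replicate 1 was far above the other libraries, and although the groups did not overlap, the difference of log2 -0.90 ± 0.44 (edgeR, adjusted p = 1.00) was log2 -0.31 without that library and log2 -0.87 without sevoflurane replicate 2. In the other 6 cell groups TSC2 lay between log2 -0.34 and 0.01.

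**Figure D3:**
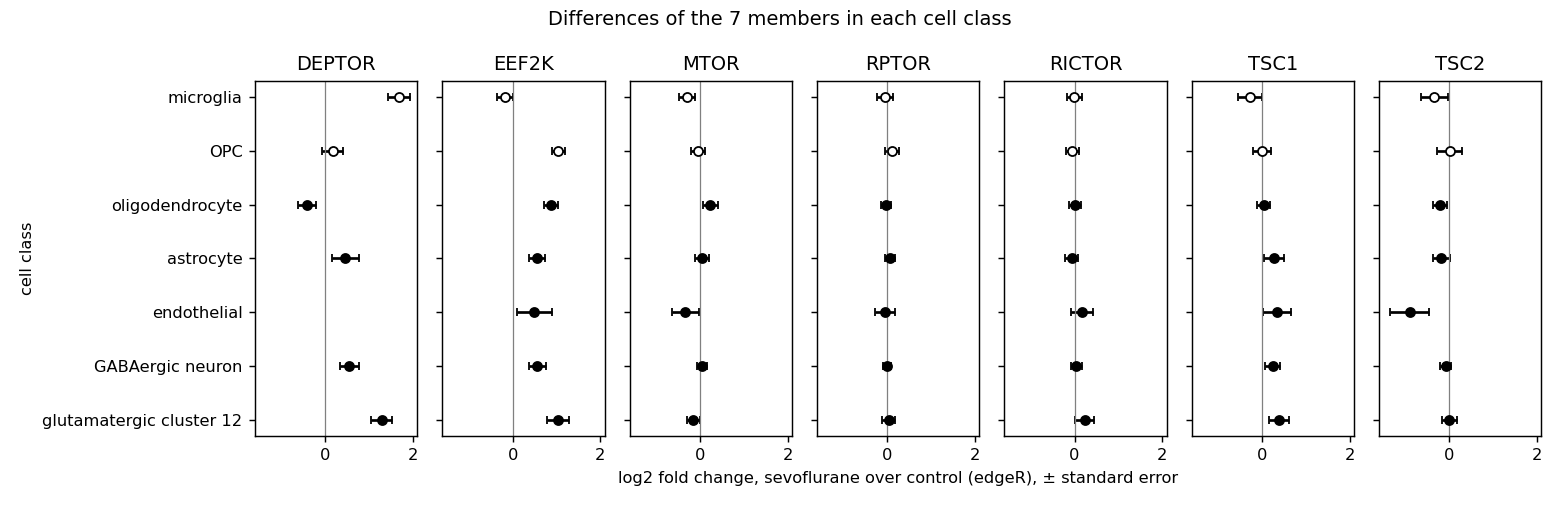
Log2 fold change of sevoflurane over control with its standard error (edgeR, 3 against 3 libraries) for each gene (panels) and cell group (rows); open points are the contrasts that chose the genes, and DEPTOR in endothelial cells was not tested. DEPTOR and EEF2K reach past 1 in some rows, while the points of the other 5 genes lie between -0.90 (TSC2 in endothelial cells) and 0.39 (TSC1 in cluster 12).

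In control libraries MTOR ran from 142 ± 6.83 CPM in OPC-like cells to 77.7 ± 9.76 CPM in oligodendrocyte-like cells (SD, n = 3), and among neighbours in its order only astrocyte-like and ependymal-like cells did not overlap. RPTOR was highest in ependymal-like cells, which line the ventricles, at 275 ± 7.49 CPM, above glutamatergic cells at 206 ± 7.25 CPM without overlap, and lowest in OPC-like cells at 125 ± 4.20 CPM. RICTOR was highest in microglia-like cells at 315 ± 30.5 CPM, without overlap with endothelial-like cells at 217 ± 42.5 CPM, and lowest in glutamatergic cells at 115 ± 13.7 CPM.

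TSC1 ran from 74.8 ± 9.99 CPM in oligodendrocyte-like to 33.6 ± 6.67 CPM in endothelial-like cells, and TSC2 from 83.4 ± 48.3 CPM in endothelial-like to 28.6 ± 8.67 CPM in ependymal-like cells. All neighbours in both orders overlapped. Levels are not compared between genes, because the counts carry no length.

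**Figure D4:**
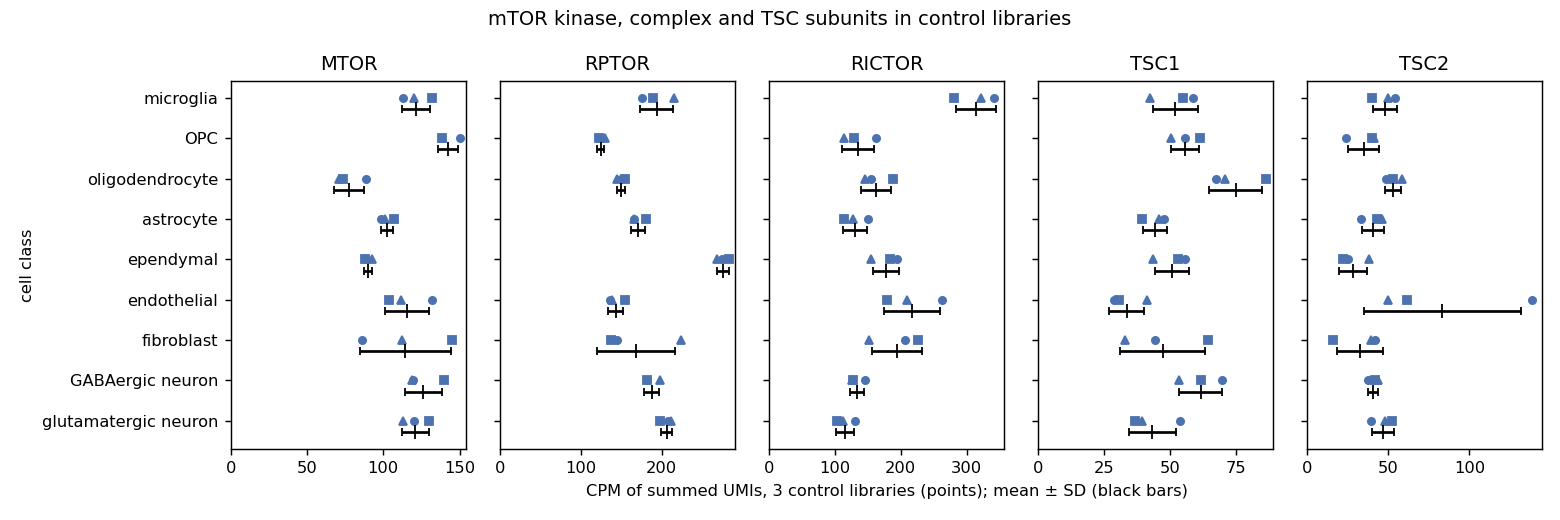
MTOR, RPTOR, RICTOR, TSC1 and TSC2 in CPM in the 3 control libraries (points, 1 symbol per replicate) with mean ± SD (black bars), by cell class, on linear axes from 0. RICTOR lies highest in microglia and RPTOR in ependymal cells, and the endothelial TSC2 bar is wide because 1 library stands at 139 CPM.

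Counted by class, the calls among the 7 genes stand beside those of all genes under the same rule. Glutamatergic cluster 12 had 1 of 7 called by edgeR, against 1.12% of all genes, 2 at an unadjusted p under 0.05, against 13.2%, and 2 called by DESeq2, against 2.3%. There 2 lay higher without overlap, against 14.4%, and 0 lower, against 6.68%. GABAergic neuron-like cells had 0 of 7 called by edgeR, against 0.0915% of all genes, 2 at an unadjusted p under 0.05, against 11.5%, and 0 called by DESeq2, against 1.52%. There 2 lay higher without overlap, against 12.8%, and 0 lower, against 5.27%. Oligodendrocyte-like cells had 0 of 7 called by edgeR, against 0.0171% of all genes, 1 at an unadjusted p under 0.05, against 7.79%, and 1 called by DESeq2, against 0.368%. There 1 lay higher without overlap, against 8.04%, and 0 lower, against 6%.

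Astrocyte-like cells had 0 of 7 called by edgeR, against 0.0175% of all genes, 1 at an unadjusted p under 0.05, against 6.29%, and 0 called by DESeq2, against 0.272%. There 1 lay higher without overlap, against 6.09%, and 0 lower, against 5.81%. Endothelial-like cells, where 6 of the 7 genes were tested, had 0 of 6 called by edgeR, against 0% of all genes, 0 at an unadjusted p under 0.05, against 4.62%, and 0 called by DESeq2, against 0.015%. There 0 lay higher without overlap, against 3.59%, and 2 lower, against 6.86%. In the contrasts that chose the genes no calls are counted and nothing is read from the separation: in microglia-like cells 1 of 7 lay higher without overlap (5.13% of all genes) and 1 lower (8.15%), and in OPC-like cells 1 higher (6.97%) and 0 lower (4.89%).

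Of the wider pathway, 113 of 120 further genes were in the table, in lists of complex subunits, growth factor, amino acid and stress inputs, outputs, and elongation factors. Between 68 and 102 of them passed the filter per cell group. In the 5 cell groups that did not choose the 7 genes, SGK1, a kinase activated by mTORC2, was the only one called. It was called in glutamatergic cluster 12, 1 of 90 genes tested, where 1.12% of all genes were called. It fell from 136, 199.6 and 234 CPM in the control libraries to 98.2, 87.7 and 97.7 CPM in the sevoflurane libraries. The groups did not overlap, and the difference was log2 -1.09 ± 0.21 (edgeR, adjusted p = 0.0461). The call was lost without control replicate 2, control replicate 3, sevoflurane replicate 1 or sevoflurane replicate 2. The share of tested pathway genes with an unadjusted p under 0.05 was 4.90% in GABAergic neuron-like cells (all genes 11.5%), 8.08% in astrocyte-like cells (all genes 6.29%), 10.3% in endothelial-like cells (all genes 4.62%), 10.0% in oligodendrocyte-like cells (all genes 7.79%) and 8.89% in glutamatergic cluster 12 (all genes 13.2%). The medians of the tested genes lay between log2 -0.03 and 0.15, those of all genes between 0.00 and 0.03.

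Genes that did not pass included DDIT4, a stress-induced inhibitor of mTORC1. It lay higher without overlap in 5 of the 7 cell groups, where 5.13 to 14.4% of all genes did. Microglia-like and OPC-like cells, whose contrasts chose the 7 genes, were among these groups. So were astrocyte-like cells, with 31.5, 23.4 and 30.7 CPM in the control libraries and 65.0, 77.1 and 53.1 CPM in the sevoflurane libraries (log2 1.18 ± 0.19, edgeR, adjusted p = 0.272). IRS2, an adaptor of the insulin receptor, held 24.6, 20.2 and 33.5 CPM in the control libraries and 57.5, 53.5 and 61.8 CPM in the sevoflurane libraries of the same cells (log2 1.13 ± 0.22, edgeR, adjusted p = 0.355). NDRG1, a substrate of SGK1 also needed for myelin, held 469, 509.7 and 471 CPM in the control libraries and 896, 1019 and 909 CPM in the sevoflurane libraries of oligodendrocyte-like cells (log2 0.94 ± 0.11, edgeR, adjusted p = 0.0689). DEPDC5, a subunit of the complex that signals amino acid lack, had log2 -0.75 ± 0.23 in microglia-like and 0.89 ± 0.31 in endothelial-like cells (0.89 without sevoflurane replicate 2).

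The other named pathway genes are given by their log2 differences. In GABAergic neuron-like cells LPIN1 stood at log2 0.40, LAMTOR2 at 0.53, SGK1 at -0.50 and EEF1G at -0.45. In OPC-like cells DDIT4 stood at log2 1.31, PIK3R1 at 0.29, WDR59 at -0.36 and PRKAA1 at -0.43, and in astrocyte-like cells SGK1 at -0.78 and PRKAA1 at -0.43. In microglia-like cells DDIT4 stood at log2 1.26, PDCD4 at 1.25 and SESN3 at -0.47. Oligodendrocyte-like cells had RPS6KA1, whose kinase phosphorylates EEF2K, at log2 0.89, SGK3 at -0.61 and TFEB at -0.37. In endothelial-like cells NPRL3 stood at log2 -0.74 and EIF5A2 at -0.58 (-0.50 and -0.58 without sevoflurane replicate 2, the library that stood apart). FOXO3 stood at log2 1.82, with 2075 CPM in that library and 304 to 574 CPM in the others, and at 0.63 without it.

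**Figure D5:**
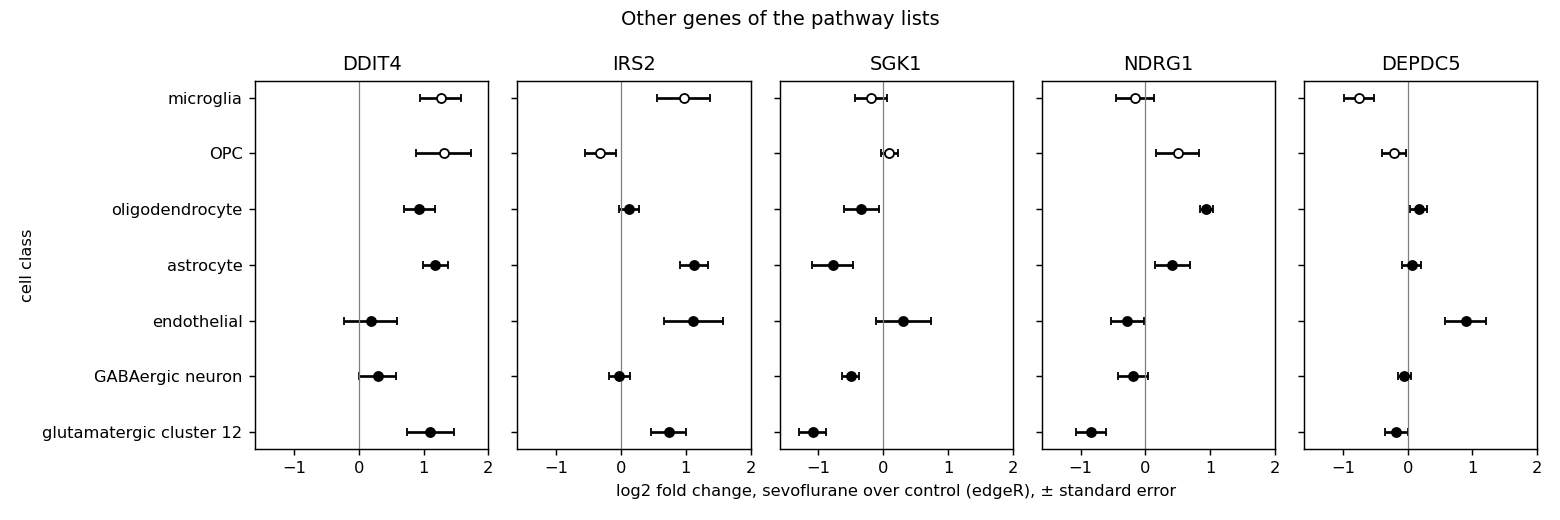
Log2 fold change of sevoflurane over control with its standard error (edgeR, 3 against 3 libraries) for DDIT4, IRS2, SGK1, NDRG1 and DEPDC5 by cell group; open points are microglia and OPCs. DDIT4 lies right of 0 in all 7 rows, while NDRG1 is at 0.94 in oligodendrocytes and -0.84 in glutamatergic cluster 12.

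The genes whose pattern was most like that of DEPTOR over the 42 sums (7 cell groups in 6 libraries, among 5730 genes) were CRYL1, PIP4K2A, ELL2, GAB2 and PPP1R16B, with Pearson correlations of log2 CPM from 0.840 down to 0.806. For EEF2K they were ITPK1, RHOQ, PPFIBP2, CECR2 and NOP14, from 0.850 down to 0.800. DEPTOR and EEF2K correlated with each other at 0.304. The sums share libraries and depth, and they differ between cell classes as well as between groups, so these correlations are descriptions.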

How the data were processed

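Single-cell RNA was counted in hippocampus of 3 control and 3 sevoflurane libraries. The authors deposited whole-number UMI counts for each gene and cell barcode, from Cell Ranger 6.1.1 per the file headers; CASAVA 1.8 and Seurat are named in the submitters' processing notes. The build and annotation are not stated in the labels or headers, and no coordinates or sequences are printed.

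All barcodes had at least 500 UMIs and 200 genes. Doublet scores came from scrublet (scanpy 1.11.5), library by library; 1 cutoff, the median of the automatic ones, was used throughout, a choice made after those were seen, because that of sevoflurane replicate 2 lay apart. It marked 4.53% to 5.86% of barcodes. Leiden clustering (resolution 1, 30 components, 2000 variable genes, no batch integration) gave 33 clusters, of which 26 were named by marker lists, with limits set after the files were read (cluster 11 is given by number only), and 7 (2223 cells) were not. Sums per library and class with at least 20 cells in each library were tested with edgeR 4.0.16 (R 4.3.3; filterByExpr, TMM), and the procedure was tested on simulated data. Alternatives were DESeq2 1.42.0, limma 3.58.1 on mean log values, no filter, a replicate block, each library left out, resolution 0.5, doublets kept, and clustering without the pathway genes. The genes and lists were chosen with earlier results of these data known. Named were the 7 genes, every pathway gene past the threshold (at most 10 per class), otherwise the 2 of smallest p per direction, the 5 genes most correlated with DEPTOR and with EEF2K, and FKBP5 once; values of these genes in further classes were added after they were seen. A planned promoter motif search was not run. Intervals and depth cover counting error only.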

Additional observations from a re-analysis of the deposited data

Results flagged for a closer look

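Some genes lay wholly above control in 1 cell group and wholly below it in another; the difference between the cell groups was not tested for any of them. Of all genes tested in all 7 cell groups 7.5% did so, and 33.9% with 6 single clusters added. Values of the 7 cell groups, cluster 12 among them, are edgeR differences. Those of the other single clusters are the log2 of the means in CPM. These are unlike measures: RPTOR in cluster 12 was log2 0.03 by edgeR and 0.12 by the means.

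EEF2K lay higher without overlap in GABAergic neuron-like (log2 0.57), OPC-like (1.04), astrocyte-like (0.56) and oligodendrocyte-like cells (0.88) and in glutamatergic cluster 12 (1.04) and cluster 11 (1.21), and lower in glutamatergic cluster 9 (log2 -0.32). MTOR lay higher in glutamatergic cluster 19 (log2 0.20) and lower in microglia-like cells (log2 -0.29, but up to 0.062 over the alternatives). RPTOR lay higher in glutamatergic clusters 9 (log2 0.15), 17 (0.24) and 19 (0.23) and in cluster 11 (0.19), and lower in endothelial-like cells (log2 -0.059). TSC2 lay higher in glutamatergic cluster 17 (log2 0.33) and cluster 11 (0.60) and lower in endothelial-like cells (log2 -0.90).

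Of the pathway genes, DEPDC5 lay higher in endothelial-like (log2 0.89) and oligodendrocyte-like cells (0.17) and lower in microglia-like cells (log2 -0.75). NDRG1 lay higher in astrocyte-like (log2 0.41) and oligodendrocyte-like cells (0.94) and lower in glutamatergic cluster 12 (log2 -0.84). Single clusters other than 12 rest on at most 2 sevoflurane libraries. These were replicates 1 and 3 in cluster 11, and replicates 1 and 2 in clusters 9, 17 and 19.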

How the results depend on the processing

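Of 484 alternative values for 34 log2 differences of the 7 genes outside microglia-like and OPC-like cells, 442 kept their direction and 431 also their side of the threshold. Only DEPTOR in cluster 12 was called in the results above, and it was called in 6 of its 13 alternatives. The rest were uncalled from the start, so the count that kept their side says little about how stable they are. In microglia-like and OPC-like cells 159 of 182 kept their direction. DEPTOR in microglia was log2 1.58 to 1.92 with 1 library left out and 1.17 with doublets kept; EEF2K in OPCs was 0.92 to 1.19 with 1 library left out. The number of the 7 genes called was as follows. In oligodendrocyte-like cells it was 1 with DESeq2 (all genes 43 of 11676) or no filter (all genes 59 of 22260). In glutamatergic cluster 12 it was 2 with DESeq2 (all genes 228 of 9929) or no filter (all genes 743 of 21891). In cluster 12 it was 0 with the replicate block (all genes 32 of 9929) or any 1 library left out (0 to 0). With 1 library left out, 0 of 11040 to 238 of 9387 of all genes were called there. Further pathway genes called numbered 2 in astrocyte-like cells with DESeq2 (all genes 31 of 11403) or no filter (all genes 123 of 22289). In endothelial-like cells they numbered 2 with no filter (all genes 260 of 18762). In oligodendrocyte-like cells they numbered 1 with DESeq2, 2 with no filter and 1 in cluster 5 alone (all genes 2 of 9036). In glutamatergic cluster 12 they numbered 3 with no filter and 0 with the replicate block, limma (all genes 82 of 9929) or resolution 0.5 (all genes 92 of 10131). With 1 library left out they numbered 0 to 1. Analysing single clusters was chosen after seeing the data. The cause was not tested for any of these.

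Same-numbered libraries did not deviate together in every pair of any class. With 3 libraries per group this check cannot exclude that the numbers pair them, and the libraries were compared unpaired. With the replicate block, DEPTOR in cluster 12 was log2 1.24 (edgeR, adjusted p = 0.117).

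The differences listed here changed sign in at least 1 alternative, on the log2 scale. Most were near 0, but MTOR and EEF2K in microglia-like cells stood at log2 -0.29 and -0.18 in the results above. With limma on mean log values: RPTOR in GABAergic 0.046, TSC2 in GABAergic 0.0050, RICTOR in endothelial -0.017, RICTOR in oligodendrocyte -0.011, MTOR in cluster 12 0.0057. With doublets kept: RPTOR in GABAergic 0.013, RPTOR in astrocyte -0.042, RPTOR in endothelial 0.065, RICTOR in oligodendrocyte -0.0022. With cluster 3 alone: RPTOR in GABAergic 0.028, TSC2 in GABAergic 0.018. With cluster 13 alone: RPTOR in GABAergic 0.049. With cluster 16 alone: TSC2 in GABAergic 0.085. With cluster 5 alone: RPTOR in oligodendrocyte 0.046, TSC1 in oligodendrocyte -0.094. With DESeq2: RICTOR in oligodendrocyte -0.0025, TSC2 in cluster 12 -0.0062. With no filter: RICTOR in oligodendrocyte -0.0027, TSC2 in cluster 12 -0.019. With cluster 6 alone: RICTOR in oligodendrocyte -0.066. With replicate block: TSC2 in cluster 12 -0.048. With clustering resolution 0.5: TSC2 in cluster 12 -0.0066. With 1 library left out the ranges were: MTOR in GABAergic -0.0073 to 0.12, RPTOR in GABAergic -0.040 to 0.017, RICTOR in GABAergic -0.056 to 0.12, MTOR in astrocyte -0.11 to 0.11, RICTOR in astrocyte -0.16 to 0.045, RPTOR in oligodendrocyte -0.12 to 0.033, RICTOR in oligodendrocyte -0.067 to 0.11, TSC1 in oligodendrocyte -0.044 to 0.15, RPTOR in cluster 12 -0.063 to 0.14, TSC2 in cluster 12 -0.21 to 0.096. In microglia-like and OPC-like cells, over the alternatives other than limma, they were: MTOR in OPC -0.22 to 0.082, RPTOR in OPC -0.057 to 0.20, RICTOR in OPC -0.17 to 0.099, TSC1 in OPC -0.079 to 0.15, TSC2 in OPC -0.27 to 0.17, EEF2K in microglia -0.25 to 0.16, MTOR in microglia -0.33 to 0.062, RPTOR in microglia -0.12 to 0.055, RICTOR in microglia -0.070 to 0.070. DEPTOR had 4 to 18 UMIs per library in endothelial-like cells, too few for a test there.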
